A study of Sus scrofa with 8 samples.

Results

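S opsin cone nuclei of the pig retina were selected on their own transcripts: a nucleus counted as an S cone when it held at least 2 UMIs (unique molecular identifiers, 1 for each captured transcript) of OPN1SW, the short-wavelength opsin gene, among cones. A cone was a nucleus of at least 1000 UMIs with at least 3 summed UMIs of ARR3, PDE6C, CNGB3, CNGA3, GNAT2 and GRK7, and with more of these than of the rod genes PDE6A, PDE6B, NR2E3 and CNGA1. This rule found 826 S cone nuclei among 52937 gated cones and 364259 nuclei of at least 1000 UMIs. The nuclei came from snRNAseq of whole retinas of female Yucatan minipigs, 3 to 5 months old, which had received intravitreal injections in both eyes of AAV2.7m8/CAG-GFP, an AAV2-based vector carrying GFP under the ubiquitous CAG promoter, at 5e11 vg per eye, or of vehicle. Both groups had also received Vitrase, a hyaluronidase, in both eyes before dosing and methylprednisolone throughout. Week 2 is represented by AAV-injected 7221 and vehicle-injected 7222 with both retinas each. Week 4 is represented by the left retina of 7248 and 7249, which received AAV, and of 7250 and 7251, which received vehicle. The methods give more than 1 day of sacrifice around that time, and the labels do not say which applies to each of these 4 animals. Values per animal are given below in that order, 7221, 7222, 7248, 7249, 7250 and 7251.

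Cones are the photoreceptors of daylight and colour vision. Most mammals have S cones, which use the short-wavelength opsin, as a sparse minority among cones that use the medium or long-wavelength opsin, and in many species some cones make both. The choice is known to depend on thyroid hormone receptor beta (THRB), which promotes the medium-wavelength opsin and represses OPN1SW, and S cones contact their own type of bipolar cell. The gene of the medium or long-wavelength opsin was not analysed here, so the other cones are described as cones with 0 OPN1SW UMIs (OPN1SW-0 cones) and are not called M cones.

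The 8 retinas held between 121544835 and 173614051 UMIs, and the S cones of an animal between 295550 and 1138165. The labels give each group of treatment and week a batch of its own, so batch and group cannot be told apart in any comparison of AAV with vehicle. Nuclei were pooled from 4 lanes per retina. Of the S cone nuclei, 84 (10.2%, against 9.35% of all nuclei) had a barcode that also occurred in another lane, and 0 barcodes were an S cone in more than 1 lane. No doublet caller was run.

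The 826 nuclei were spread over all retinas: for left and right eyes, 80 and 122 in 7221 and 118 and 117 in 7222, then 77 in 7248, 151 in 7249, 86 in 7250 and 75 in 7251. Exactly 2 OPN1SW UMIs were found in 546 of them and 3 or more in 280, with a highest count of 8. Just outside the rule lay 1706 cones with 1 OPN1SW UMI, and 17 further nuclei had at least 2 OPN1SW UMIs but did not pass the cone gate. In nuclei gated as rods, between 0.0984% and 0.211% per retina held an OPN1SW UMI at median depths of 1701 to 2289 UMIs per animal, which gives the level of stray OPN1SW transcripts. At least 2 OPN1SW UMIs were held by 0% to 0.0104% of rods per animal.

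S cone nuclei were deeper than the OPN1SW-0 cones of the same animals. Their median UMIs were 5052, 4571, 4521, 5461, 4240 and 3671, against 3653, 3111, 3083, 4001, 2804.5 and 2342 in OPN1SW-0 cones. A threshold on a count takes deeper nuclei more often, so the main shares of nuclei with a transcript are given below also at matched or thinned depth, while levels are given in CPM (UMIs of a gene per 1e6 UMIs) after TMM scaling of the sum over nuclei of an animal.

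The genes used by the rule describe the nuclei and were not tested. OPN1SW reached 498 CPM ± 36.1 (SD, n = 6 animals) in S cones, with 438, 522, 507, 506, 477 and 540 CPM. Of the cone genes, CNGB3, a subunit of the cone cation channel, was found in 99.4% of the nuclei, PDE6C, the cone phosphodiesterase, in 94.7% and ARR3, the cone arrestin, in 94.2%. These markers were present at cone levels, but not at equal ones: ARR3 was at 1990 CPM ± 396 against 3510 ± 395 in OPN1SW-0 cones, and PDE6C at 885 ± 118 against 1260 ± 120, both lower in 6 of 6 animals. GNAT2, the cone transducin, was at 1210 ± 245 against 1050 ± 232 CPM and higher in 6 of 6 animals. CNGB3, CNGA3 and GRK7 differed by at most 0.13 on the log2 scale on average. The 4 rod genes of the gate had lower mean levels, such as PDE6A with 180 against 381 CPM.

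The clearest companion of OPN1SW was CCDC136, a gene for a coiled-coil protein that lies next to it. CCDC136 was at 5050, 4800, 4480, 5170, 4210 and 4160 CPM in S cones and at 301, 287, 301, 231, 293 and 428 CPM in OPN1SW-0 cones. Every animal was thus far above its own OPN1SW-0 cones and the gates did not overlap, with a log2 fold change of 3.97 ± 0.06 (SE; edgeR's quasi-likelihood test with the animal as a block, adjusted p = 2.3e-76). In the RefSeq annotation of Sscrofa11.1, OPN1SW spans chr18:19836453-19839425 on the plus strand and CCDC136 chr18:19793764-19824855 on the minus strand. The genes point away from each other, with 11.6 kb between their annotated starts, and do not overlap.

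The stretch before OPN1SW is shown because it is the region between this pair on the side of the gene that defines the nuclei. It covers 220 bases on the plus strand of chr18:19836203-19836422, from 250 to 31 bases before the annotated start of the gene. Whether transcription starts there was not tested.
OPN1SW upstream: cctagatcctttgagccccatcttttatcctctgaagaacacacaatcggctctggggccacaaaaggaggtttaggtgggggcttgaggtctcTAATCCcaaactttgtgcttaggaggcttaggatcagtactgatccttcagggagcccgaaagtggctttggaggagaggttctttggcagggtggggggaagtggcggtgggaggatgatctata
Capitals mark TAATCC, the core letters bound by the photoreceptor factor CRX, found at -156 to -151. Searched on both strands, these letters occur in 4.93% of 19556 such windows before annotated protein-coding genes. The same windows were searched for GGAATG (TEAD factors, 9.29% of windows), AGGTCA (nuclear receptors, 11%) and GGTGTGA (T-box factors, 2.23%), none of which overlapped TAATCC and none of which occurred before OPN1SW. AGGTCA occurred once each before CCDC136 and TEAD4, and GGAATG once each before NRXN3 and CADM3. A match is a description of letters and not of binding.

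Over all genes, 777 of 18513 were higher in S cones (4.2%) and 1566 lower (8.46%) at an adjusted p under 0.05 (edgeR's quasi-likelihood test on 12 sums, S and OPN1SW-0 cones of 6 animals, with the animal as a block). The median log2 fold change over all genes was -0.08. With DESeq2 the split was 735 higher and 840 lower, against 33.2% higher calls in edgeR and 46.7% in DESeq2. The fit without the block called 857 genes and the fit of the 3 vehicle-injected animals alone 1130. Both gates come from the same retinas, so that a gene's spread between animals is shared by both.

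After CCDC136, the 9 genes with the largest higher levels included transcription factors, a transporter, enzymes and a channel. TEAD4, a transcription factor of the Hippo pathway, was at 285, 266, 230, 199, 208 and 251 CPM in S cones. In OPN1SW-0 cones it was at 17.1, 14.1, 16, 10.3, 17.8 and 24.4 CPM. The lowest S cone value was above the highest of the OPN1SW-0 cones by several fold, and the log2 fold change was 3.95 ± 0.10 (edgeR adjusted p = 5.2e-57). GXYLT2, a xylosyltransferase that modifies Notch, was at 167 CPM ± 58.6 against 20.3 ± 6.65, with a log2 fold change of 3.11 ± 0.11. KCNJ3, a subunit of G-protein-gated potassium channels, was at 207 ± 82.8 against 44.3 ± 9.02 CPM, and PCSK6, a proprotein convertase, at 126 ± 22.6 against 28.5 ± 9.70 CPM. MN1, a transcriptional regulator, EPHX4, of the epoxide hydrolase family, CLDN2, a tight junction protein, and PKIB, an inhibitor of protein kinase A, had lower levels, between 26.0 and 40.1 CPM in S cones, and log2 fold changes of 2.18 to 2.61. SLCO4C1, an organic anion transporter, varied most among animals, with 88.9, 33.3, 30.7, 4.95, 92.1 and 31.8 CPM in S cones against 1.2 to 8.84 in OPN1SW-0 cones. Animal 7249 was the low one, and its S cones lay within the range of the OPN1SW-0 cones of the other animals.

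Genes that were nearly absent from S cones formed the larger differences. ITPRID1, a protein with an inositol trisphosphate receptor interacting domain, was at 17.4, 24.3, 12.8, 6.19, 7.08 and 9.53 CPM in S cones and at 338 to 558 CPM in OPN1SW-0 cones (log2 fold change -4.95 ± 0.12, edgeR adjusted p = 2.0e-59). SEMA3A, a secreted axon guidance protein, was at 21.8, 27.0, 25.6, 18.6, 28.3 and 12.7 CPM in S cones against 296 to 583 CPM (log2 fold change -4.31 ± 0.10, edgeR adjusted p = 1.2e-58). In neither gene did the gates overlap. PPARG, a nuclear receptor of lipid metabolism, was detected in 3 of 826 S cone nuclei and in 7.34% of OPN1SW-0 cones (0.436% and 8.57% at a matched depth of 3000 to 6000 UMIs), at 0.436 against 28.8 CPM. SQOR, a mitochondrial enzyme of sulfide oxidation, was at 11.3 against 223 CPM, FLRT2, an adhesion protein, at 16.7 against 308 and ENTREP2 at 16.3 against 300. PLEKHA2, an adaptor that binds phosphoinositides, SEC14L5, NPTX1, a neuronal pentraxin, and ADRA1A, an adrenergic receptor, complete the 10 genes with the largest lower levels, each under 5 CPM in S cones and with log2 fold changes of -3.67 to -4.60. The next 10 held NRP1, a receptor for SEMA3A, at 8.06 against 71.9 CPM (log2 fold change -3.34), and PIEZO2, a mechanosensitive channel, at 6.97 against 69.5 CPM.

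Neighbours of these genes also differed, and were picked after their values were seen. TULP3, whose product carries receptors to the cilium, lies 70.8 kb from TEAD4 by their annotated starts on chromosome 5 and was at 36.2 CPM ± 6.19 against 9.63 ± 1.52 (log2 fold change 2.00 ± 0.18). SYN2, a synaptic vesicle protein, lies 252 kb from PPARG on chromosome 13 and was at 23.1 ± 14.1 against 171 ± 68.6 CPM (log2 fold change -2.76 ± 0.14).

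**Figure D1:**
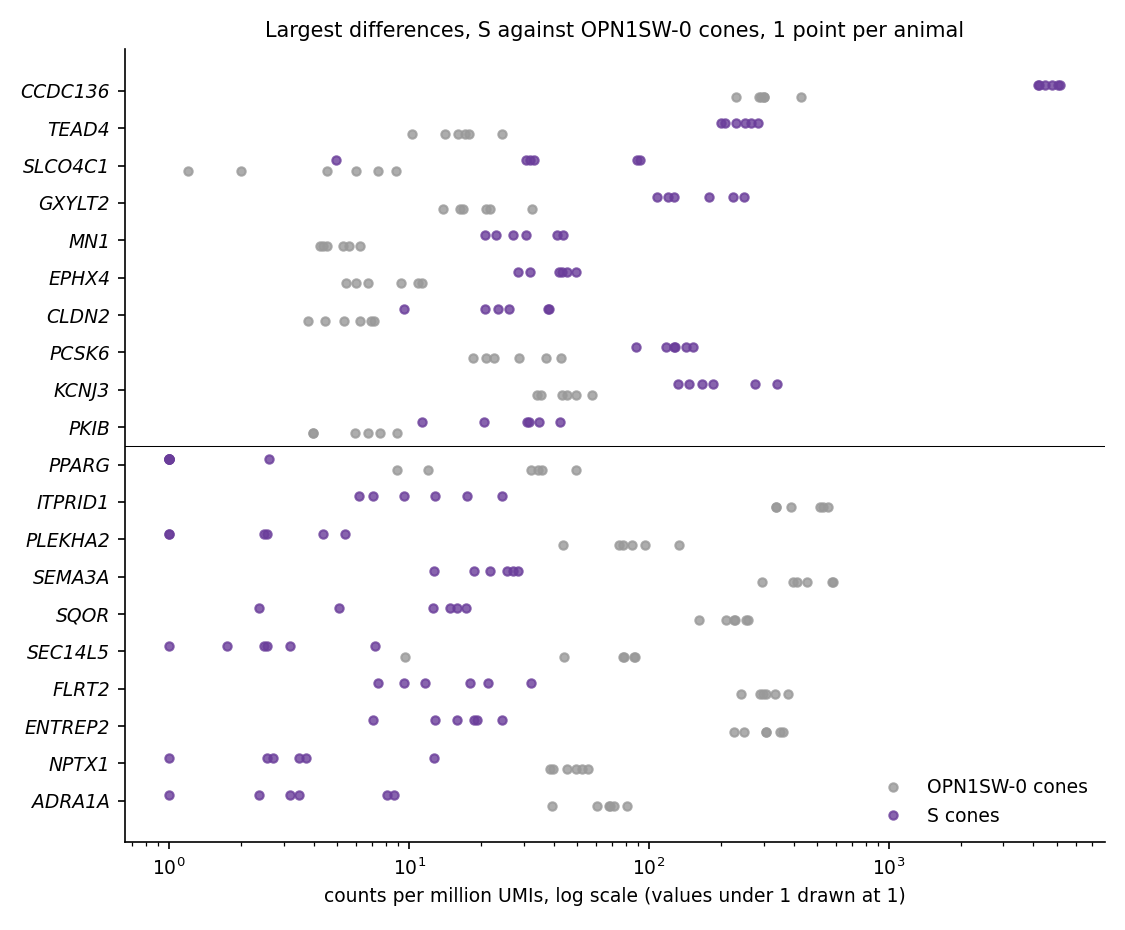
The 10 genes with the largest higher and the 10 with the largest lower levels in S cones (purple) than in OPN1SW-0 cones (grey), in CPM on a log scale with 1 point per animal and values under 1 drawn at 1. The gates do not overlap for CCDC136, at 4160 CPM or more against 428 or less, whereas 1 animal's S cones lie at 4.95 CPM for SLCO4C1, inside the range of the grey points.

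Regulators of cone type moved in both directions. Of 34 tested genes of cone subtype and opsin regulation, 7 were higher and 6 lower in S cones, with a median log2 fold change of 0.05, against 4.2% higher, 8.46% lower and a median of -0.08 over all genes. The list holds CCDC136, which was put there with its difference known from earlier results, as the neighbour of OPN1SW and not as a known regulator. THRB was at 104, 93.6, 76.8, 42.1, 109 and 54.0 CPM in S cones and at 814, 1100, 882, 1080, 985 and 893 CPM in OPN1SW-0 cones. All 6 animals were low in S cones with no overlap, and the log2 fold change was -3.54 ± 0.09 (edgeR adjusted p = 5.7e-58). TBX2, a T-box transcription factor, was at 27.9, 40.5, 30.7, 33.4, 37.8 and 34.9 CPM against 6.5 to 12.1 CPM (log2 fold change 2.00 ± 0.19, edgeR adjusted p = 2.1e-15). RXRG, the retinoid receptor that pairs with THRB, rose far less, from 122 to 174 CPM (log2 fold change 0.56 ± 0.08, edgeR adjusted p = 1.6e-08), and OTX2, a photoreceptor transcription factor, had the same fold change. RXRG and OTX2 missed the threshold once nuclei were thinned to 1000 UMIs, and OTX2 was lower, by 0.11 on the log2 scale, in the 31 nuclei with at least 5 OPN1SW UMIs. ESRRB, an orphan nuclear receptor, fell from 91.9 to 48.3 CPM and RORA, another, from 381 to 302 CPM. BHLHE40 and ISL2 were also called lower but had 0 and 3 UMIs in all S cones.

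Among phototransduction genes that the gate did not use, 5 of 26 were higher and 7 lower (median log2 fold change -0.17), against the same 4.2%, 8.46% and -0.08 over all genes. SAG, the rod arrestin, which pig cones also contained, was at 8740, 7900, 6370, 5690, 7140 and 8030 CPM in S cones against 3410 to 5350 in OPN1SW-0 cones (log2 fold change 0.77 ± 0.04, edgeR adjusted p = 6.1e-35). The gates did not overlap, and SAG thus lay on the other side from ARR3. Other rod markers were lower: GNAT1, the rod transducin, was at 71.4 against 126 CPM, and 5 of the 7 rod markers tested outside the gate were called lower, with SAG higher and ROM1 not called. RGS9, which speeds the shut-off of transducin, was at 695 ± 71.9 against 970 ± 74.5 CPM, and DHRS3, a retinal reductase, at 17.0 against 52.8 CPM. GNB3, the cone transducin beta subunit, was slightly higher at 400 against 329 CPM (log2 fold change 0.29 ± 0.06), but by only 0.05 after thinning.

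Synaptic genes also moved both ways: 6 of 33 genes of the cone terminal and ribbon synapse were higher and 9 lower (median log2 fold change -0.06; all genes, 4.2%, 8.46% and -0.08). NRXN3, a presynaptic neurexin, was at 724, 786, 837, 986, 583 and 540 CPM in S cones against 212 to 274 CPM in OPN1SW-0 cones (log2 fold change 1.63 ± 0.06, edgeR adjusted p = 4.4e-41). CADM3, a synaptic adhesion protein, was at 145 ± 42.9 against 39.1 ± 5.48 CPM and CALB1, a calcium-binding protein, at 15.6 ± 3.90 against 6.44 ± 2.03 CPM. LRFN2, another adhesion protein, went the other way, at 476 against 966 CPM (log2 fold change -1.01). The channel CACNA1D was higher, at 750 ± 40.6 against 504 ± 12.9 CPM, while CACNA2D4, an auxiliary subunit of such calcium channels, was lower, at 346 ± 42.2 against 607 ± 30.7 CPM. TRPM1, a channel best known from ON bipolar cells, was at 195, 304, 58.9, 167, 156 and 261 CPM against 600 to 776 CPM and did not overlap (log2 fold change -1.87 ± 0.09, edgeR adjusted p = 9.0e-36).

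Of 24 outer segment and cilium genes, 7 were higher and 3 lower (median log2 fold change -0.01), beside 4.2%, 8.46% and -0.08 over all genes. The changes were small except for IMPG1, a proteoglycan of the matrix around photoreceptors, at 3000 ± 208 against 5020 ± 514 CPM (log2 fold change -0.72), and LCA5, a ciliary protein, at 758 ± 127 against 555 ± 82.5 CPM (log2 fold change 0.47).

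**Figure D2:**
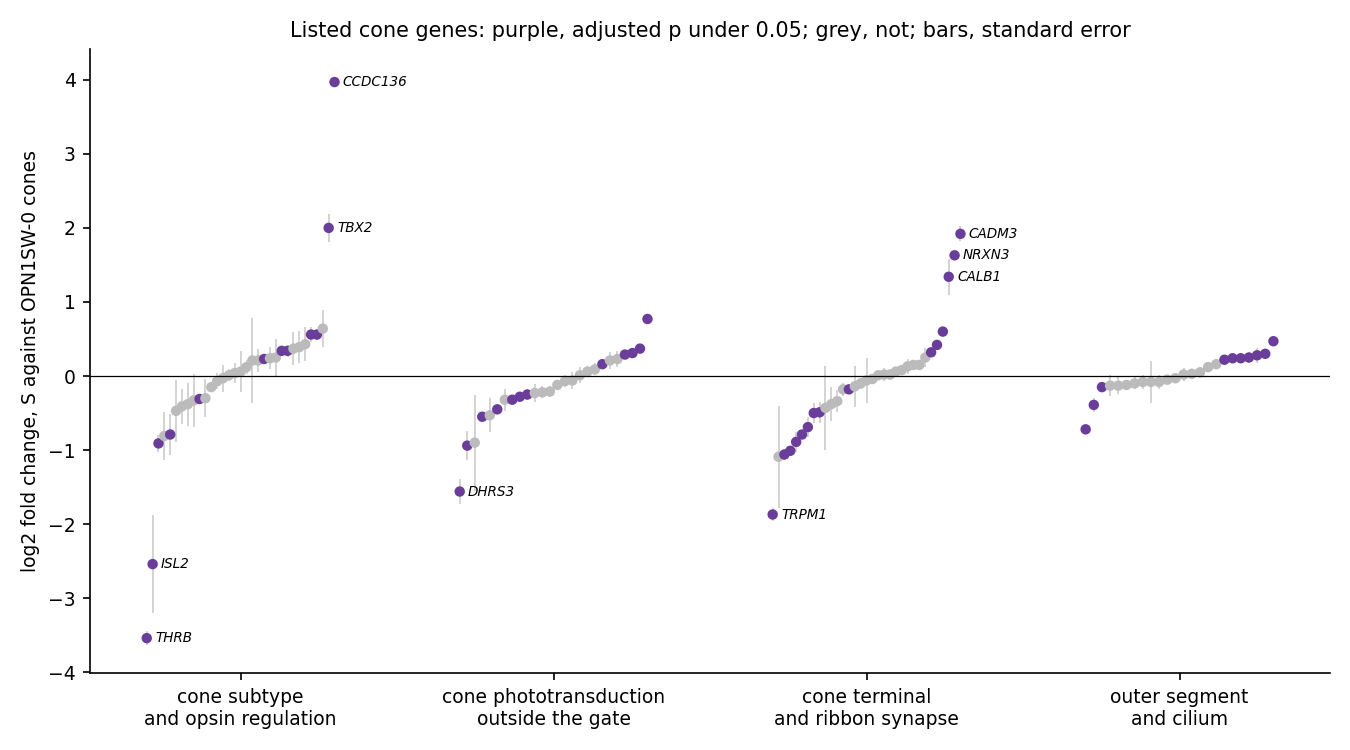
Log2 fold change of S against OPN1SW-0 cones for every tested gene of 4 lists except BHLHE40, which had 0 UMIs in S cones; purple points passed an adjusted p of 0.05, grey points did not, and bars are standard errors. CCDC136 (3.97), TBX2 (2.00) and THRB (-3.54) stand far from the bulk of their list, CADM3 (1.92) and TRPM1 (-1.87) span the synaptic list, and the outer segment genes stay near 0.

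Few markers of other cell types were called higher in S cones. Summed bipolar markers were at 521, 1080, 151, 577, 767 and 1040 CPM in S cones against 1120 to 1650 CPM in OPN1SW-0 cones. GRIK1, a kainate receptor subunit, was a large part of the S cone sums, at 97.6, 417, 10.2, 227, 434 and 508 CPM, and 166 of its 183 UMIs in 7249 lay in 1 nucleus. Called higher and lower were 1 and 5 of 11 bipolar, 0 and 4 of 8 amacrine, 0 and 2 of 6 Müller and 0 and 1 of 5 T lymphocyte markers, beside 4.2% and 8.46% over all genes. Of 4 pigment epithelium markers, MITF was called higher (282 against 216 CPM) and 2 lower, and their sum was higher in 6 of 6 animals, at 296 to 379 CPM in S cones and 262 to 338 CPM in OPN1SW-0 cones. Of the B and plasma cell list, PAX5 was called higher, at 20.9, 39.6, 61.4, 53.2, 2.36 and 19.1 CPM in S cones, while MS4A1, CD79A and CD79B had 0 UMIs there. Microglial AIF1 and TYROBP, T cell CD3D and CD2, and vascular CDH5 and RGS5 also had 0 UMIs in S cones. Other members of these lists were found there. Summed T lymphocyte markers were at 2.56 to 9.53 CPM, above OPN1SW-0 cones in 7221, 7222 and 7251 and below in the others. Microglial sums were at 0 to 20.5 CPM, above OPN1SW-0 cones only in 7251 (15.9 against 6.19 CPM). Vascular sums were at 12.8 to 29.6 CPM and lower than in OPN1SW-0 cones in 6 of 6 animals. The B and plasma sum was higher in S cones except in 7250 (9.45 against 20.8 CPM), with 87.0 against 47.5 CPM in 7248. Between 13% and 20.8% of S cone nuclei per animal held at least 3 UMIs of markers of other cell types. In OPN1SW-0 cones these shares were 15.4% to 22.3%, and without such nuclei 1969 genes were called.

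The differences were then followed along the OPN1SW count itself. At 0, 1, 2, 3, 4 and at least 5 OPN1SW UMIs, 6.64%, 89.4%, 96.5%, 100%, 100% and 100% of cones held at least 5 CCDC136 UMIs. TEAD4 was detected in 3.89%, 48.2%, 59.5%, 67.5%, 65.5% and 67.7% and THRB in 82.3%, 24.1%, 17.8%, 13.9%, 18.2% and 19.4%. Nuclei just inside the rule, with 2 OPN1SW UMIs, therefore lay close to those just outside it with 1, and far from those with 0. SEMA3A was detected in 60.7% at 0, 11.6% at 1 and 7.88% at 2 OPN1SW UMIs, and NRXN3 in 23.4%, 73.0% and 80.8%. Median depth rose along the same series from 3109 UMIs at 0 to 3628.5 at 1, 4514.5 at 2 and 6370 at 5 or more. At a matched depth of 3000 to 6000 UMIs, THRB was detected in 13.3% of 459 S cones, 24.5% of 827 cones with 1 OPN1SW UMI and 87.9% of 21135 OPN1SW-0 cones. In the same nuclei TEAD4 was detected in 62.7%, 53.3% and 4.33%, and SEMA3A in 5.45%, 11.7% and 69.3%.

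**Figure D3:**
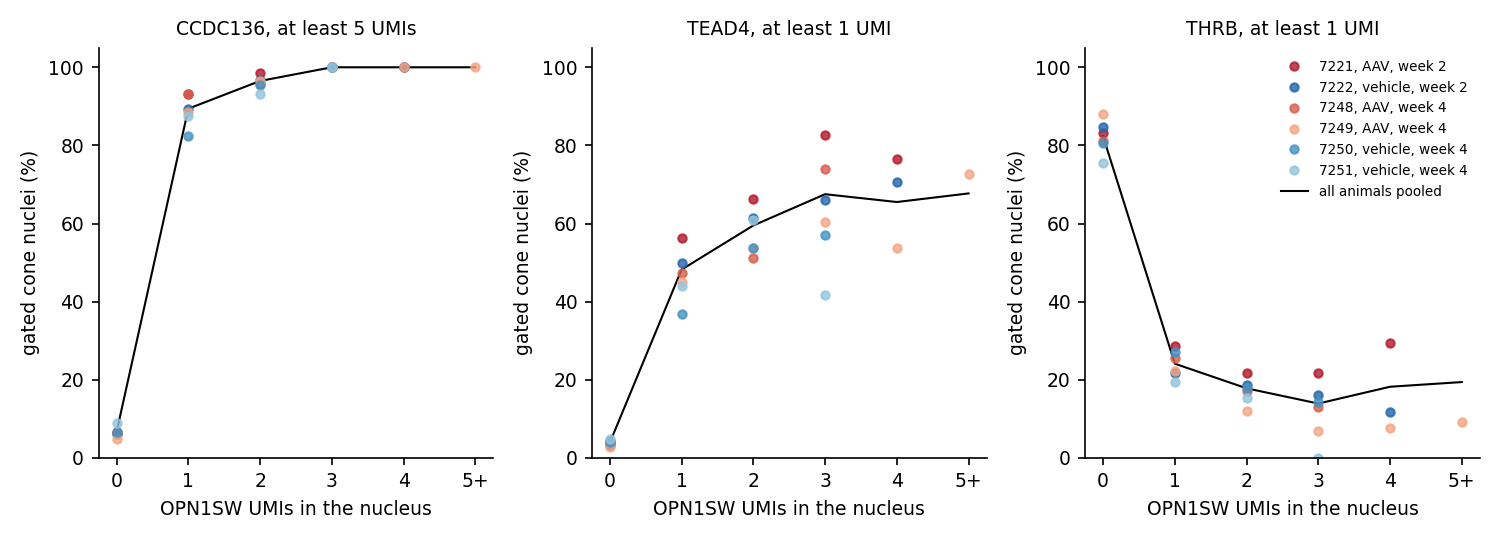
Percent of gated cones with at least 5 CCDC136 UMIs, with TEAD4 and with THRB against the number of OPN1SW UMIs in the nucleus; points are animals with at least 10 such nuclei and the line pools all animals. The step lies between 0 and 1 OPN1SW UMI (CCDC136 from 6.64% to 89.4%, THRB from 82.3% to 24.1%) rather than at the threshold of 2.

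CCDC136 was chosen after its values were seen to look at cones that the OPN1SW threshold left out. At least 5 CCDC136 UMIs were held by 807 of the 826 S cones, by 1525 of the 1706 cones with 1 OPN1SW UMI and by 3345 OPN1SW-0 cones. These 5677 nuclei made up 10.7% of cones, against 1.56% for S cones by the rule. The 3345 OPN1SW-0 cones among them had THRB in 24.6%, TEAD4 in 45.3% and SEMA3A in 11.9% of nuclei. The other 47060 OPN1SW-0 cones had THRB in 86.4%, TEAD4 in 0.948% and SEMA3A in 64.1%. The OPN1SW-0 group thus held a minority with the profile of the S cones in these genes, and fold changes against the whole group include it. By animal, the cones with at least 5 CCDC136 UMIs made up 10.5%, 10.5%, 10.3%, 11.2%, 9.85% and 12.3% of cones. Of the 19 S cones with fewer than 5 CCDC136 UMIs, THRB was found in 21.1%, at a median depth of 2084 UMIs.

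The share of S cones among gated cones was 1.49%, 1.67%, 1.38%, 3.08%, 1.25% and 0.945%. Animal 7249 stood apart with an exact 95% binomial interval of 2.62% to 3.61%, which covers counting error only, while the other 5 lay between 0.945% and 1.67%. The eyes of 7221 gave 1.19% (0.945% to 1.48%) and 1.79% (1.49% to 2.13%), and those of 7222 gave 1.70% and 1.63%. At week 4 the mean was 2.23% with AAV and 1.10% with vehicle, a difference of 1.13 points (exact permutation test, two-sided, p = 0.33, the smallest that 2 against 2 animals allow). Without animal 7249 the difference was 0.278 points. With every nucleus thinned to 1000 UMIs before gating the difference was -0.0414 points, with shares of 0.089%, 0.209%, 0.077%, 0.192%, 0.187% and 0.166%. These shares rest on few nuclei, as 7249 had 4898 gated cones before thinning, and say little on whether 7249 stands apart. The share of cones with at least 5 CCDC136 UMIs differed by -0.287 points. S cones of 7249 were also the deepest, with a median of 5461 UMIs, and its CCDC136-rich cones held 1.06 OPN1SW UMIs each against 0.399 to 0.665 in the other animals. Per 1e6 UMIs, without TMM scaling, OPN1SW in these cones was at 216 in 7249 and at 128 to 162 in the others, so that 7249 was also the highest per UMI. The part of depth in the share was not tested beyond these values.

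The question of how S cones responded to the vector was addressed at week 4 with 2 animals per arm. Of 5771 genes, 7 were higher (0.121%) and 18 lower (0.312%) in AAV-injected than in vehicle-injected animals (edgeR's quasi-likelihood test, adjusted p under 0.05), with 496 genes at an unadjusted p under 0.05. DESeq2 called 3 higher and 17 lower, and the split was 13 and 12 without nuclei holding at least 3 UMIs of other cell classes, 4 and 4 with a mitochondrial share up to 0.5%, and 6 and 2 with all 6 animals and week as a covariate. At least 2000 UMIs per nucleus gave 39 calls and no filter on low counts gave 167, and leaving out 7248, 7249, 7250 or 7251 gave 49, 108, 110 or 132, so that the count is given as an order of size. In a sum over nuclei, fewer responding nuclei and less RNA per nucleus cannot be told apart.

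Interferon-stimulated genes were 3 of the 7 higher genes. IFI6, an interferon-induced mitochondrial protein, had 155, 0, 21, 84, 0 and 0 UMIs in S cones, present in every AAV-injected animal and in none of the vehicle-injected ones. Against a limit of 3 UMIs over the vehicle group, this was at least 20.3-fold higher at week 4 and at least 52.3-fold at week 2 (edgeR adjusted p at week 4 = 0.011). IFI6 passed the filter on low counts only through the AAV-injected animals, so this p is no support apart from the counts. EIF2AK2, the double-stranded RNA sensor PKR, was at 140, 32.4, 97.3, 152, 33.1 and 38.1 CPM, and all 3 AAV-injected animals lay above all 3 vehicle-injected ones (log2 fold change 1.81 ± 0.32, edgeR adjusted p = 0.047). EIF2AK2 missed the threshold in DESeq2 and without animal 7249.

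The low number of interferon-stimulated genes went with few of them being testable in so small a sum. Only 7 of the list passed the filter on low counts in S cones (median log2 fold change 0.39, against 0.00 over all genes). In OPN1SW-0 cones 57 passed and 46 were called higher (median 3.55, against 0.00), and in rods 58 passed and 54 were called higher (median 4.13, against 0.02). The background was 1.3% of 19305 genes called higher and 0.544% lower in OPN1SW-0 cones, and 6.68% and 6.84% of 23555 genes in rods. Of the listed genes below the filter, 4 picked after their values were seen had more UMIs with AAV, while ISG20, IFI35 and OASL had 0 UMIs in S cones. MX1, an antiviral GTPase, had 88, 4, 7, 21, 0 and 1 UMIs and IFI44L had 45, 0, 9, 30, 0 and 0. ISG15, a ubiquitin-like modifier, had 75, 0, 5, 7, 1 and 0 UMIs, and MX2 17, 0, 12, 6, 0 and 0. In the cones with at least 5 CCDC136 UMIs, which give larger sums, 40 of the list were tested and 26 were higher and 0 lower (median 3.08, against 0.00 over all genes), with 0.773% of 12290 genes called higher and 1.01% lower. In these cones MX2 had 54, 55, 0 and 0 UMIs in 7248, 7249, 7250 and 7251, and DDX60 had 35, 44, 0 and 1. Such genes passed the filter only through the AAV-injected animals, so the count and median partly follow from the filter. These cones of AAV-injected animals also carried UMIs of immune cell genes, with PTPRC, the leukocyte antigen CD45, at 15 and 14 UMIs in 7248 and 7249 against 1 and 1 in 7250 and 7251, and HLA-DRA, of MHC class II, at 17 and 12 against 0 and 0. Their part in the result was not tested. In S cones at week 4, 0 of 3 testable MHC class I, 8 p53 target, 6 cell death, 6 stress and 1 complement genes were called, which says little at a background of 0.121% higher and 0.312% lower. In OPN1SW-0 cones 7 of 16 MHC class I and 4 of 15 complement genes were called higher. In the same sums, 6 of 9 microglia and macrophage, 2 of 5 T lymphocyte and 1 of 3 B and plasma markers were called higher. In rods these were 8 of 10, 5 of 6 and 5 of 6. The part of other cells' RNA in the calls of interferon-stimulated and other listed genes in OPN1SW-0 cones and rods was not tested. No gene of the 4 cone lists was called in S cones, where 17, 22, 26 and 23 of their genes could be tested. In cones with at least 5 CCDC136 UMIs, RXRG (log2 fold change 0.86), NRXN3 (0.82) and LRIT1 (1.06) of these lists were called higher. DIO2 and SIX3 (both -1.93), GNB3 (-0.62) and RLBP1 (-2.08), also a Müller marker, were called lower there, beside 0.773% higher and 1.01% lower over all genes.

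ABCA1, a cholesterol exporter, was at 53.1, 66.6, 220, 194, 80.3 and 44.5 CPM, high in both AAV-injected animals of week 4 and not in that of week 2 (log2 fold change at week 4 1.65 ± 0.28, edgeR adjusted p = 0.035). In OPN1SW-0 cones its fold change was 1.48 and in rods 2.17. CDH18, a neuronal cadherin, was at 297, 346, 594, 270, 82.6 and 73.1 CPM. Here the vehicle-injected animals of week 4 were low, while the vehicle-injected animal of week 2 lay above AAV-injected 7249 (log2 fold change at week 4 2.41 ± 0.39, edgeR adjusted p = 0.025). With all 6 animals and week as a covariate the log2 fold change of CDH18 was 1.36 (edgeR adjusted p = 1.0), and in cones with at least 5 CCDC136 UMIs it was 1.64 (edgeR adjusted p = 0.058). Over both weeks CDH18 was on average higher in S than in OPN1SW-0 cones, at 277 ± 192 against 108 ± 22.4 CPM. It was higher in 4 animals and lower in vehicle-injected 7250 (82.6 against 90.1 CPM) and 7251 (73.1 against 117 CPM). NXPH2, a neurexin ligand, was also called, with 11 UMIs in 7248 and 30 in 7249, of which 23 lay in a single nucleus. In cones with at least 5 CCDC136 UMIs it had 148, 63, 73 and 34 UMIs in the 4 week 4 animals and was not called (log2 fold change 1.22, edgeR adjusted p = 0.30). The last higher gene has an identifier and no symbol (ENSSSCG00000038719), with 22 and 38 UMIs in 7248 and 7249 and 0 in the other animals. In S cones NXPH2 and this gene had 0 UMIs in 7250 and 7251 and passed the filter on low counts only through the AAV-injected animals.

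Of the 18 lower genes, 9 were protein genes of the mitochondrial genome. COX3, a subunit of cytochrome oxidase, was at 648, 176, 74.2, 91.6, 902 and 384 CPM, so that AAV-injected animals were low at week 4 and high at week 2 (log2 fold change at week 4 -2.98 ± 0.35, edgeR adjusted p = 0.0054). COX1, COX2, ATP6, CYTB, ND1, ND2, ND4 and ND5 had log2 fold changes of -2.44 to -2.93. The 13 mitochondrial protein genes took 0.369%, 0.104%, 0.0595%, 0.0517%, 0.490% and 0.226% of the UMIs of S cones. One nucleus of 7250 held 252 of the 382 COX3 UMIs of that animal. For each of the other called mitochondrial genes, too, 1 nucleus held most of the UMIs of 7250. Examples are COX1 with 199 of 334, ATP6 with 180 of 248 and ND1 with 55 of 68. The 0.490% share of 7250 includes these counts, and whether they came from the same nucleus was not determined. With nuclei of at most 0.5% mitochondrial UMIs the log2 fold change of COX3 was -0.71 (edgeR adjusted p = 0.43). That filter, which selects on the quantity tested, left 8 genes called in all. COX3 was also lower at week 4 in OPN1SW-0 cones (-1.61, edgeR adjusted p = 0.0095), in rods (-1.83, edgeR adjusted p = 0.0029) and in cones with at least 5 CCDC136 UMIs (-2.29, edgeR adjusted p = 9.5e-04). Among nuclear genes, TMTC1 had 0 UMIs in both AAV-injected animals of week 4 and 35.4 and 54.0 CPM in the vehicle-injected ones. It passed the filter on low counts only through the vehicle-injected animals. THSD7B, PDE3A, KCNMA1 (a potassium channel), PCDH7 (a protocadherin), NRG3 (a neuregulin) and MDGA2 (a synaptic adhesion protein) were also called lower, with log2 fold changes of -1.03 to -2.15. One nucleus held 60 of the 110 PCDH7 UMIs of vehicle-injected 7250. In vehicle-injected 7251, 46 of the 114 NRG3 and 24 of the 67 THSD7B UMIs lay in 1 nucleus each. In rods all of these genes and TMTC1 were called lower except PCDH7, with log2 fold changes of -0.97 to -1.30, beside 6.84% of all genes. In OPN1SW-0 cones only TMTC1 (-1.53) and PDE3A (-0.71) were. In cones with at least 5 CCDC136 UMIs, PCDH7 (0.02), MDGA2 (-0.36) and THSD7B (-0.75) were not called (edgeR adjusted p of 0.97, 0.27 and 0.11), while TMTC1, PDE3A, KCNMA1 and NRG3 were called lower. The last 2 lower genes are identifiers with no symbol, ENSSSCG00000018061 and ENSSSCG00000018063, whose place in the genome was not determined here. Like COX3, both were low at week 4 and high at week 2 in AAV-injected animals. One nucleus held 323 of the 478 and 183 of the 314 UMIs of these 2 genes in 7250. In the same sums the bipolar markers were at 151 and 577 CPM in AAV-injected and 767 and 1040 CPM in vehicle-injected animals of week 4. Without nuclei holding at least 3 UMIs of other-class markers, 16 of the 20 calls still testable were kept.

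**Figure D4:**
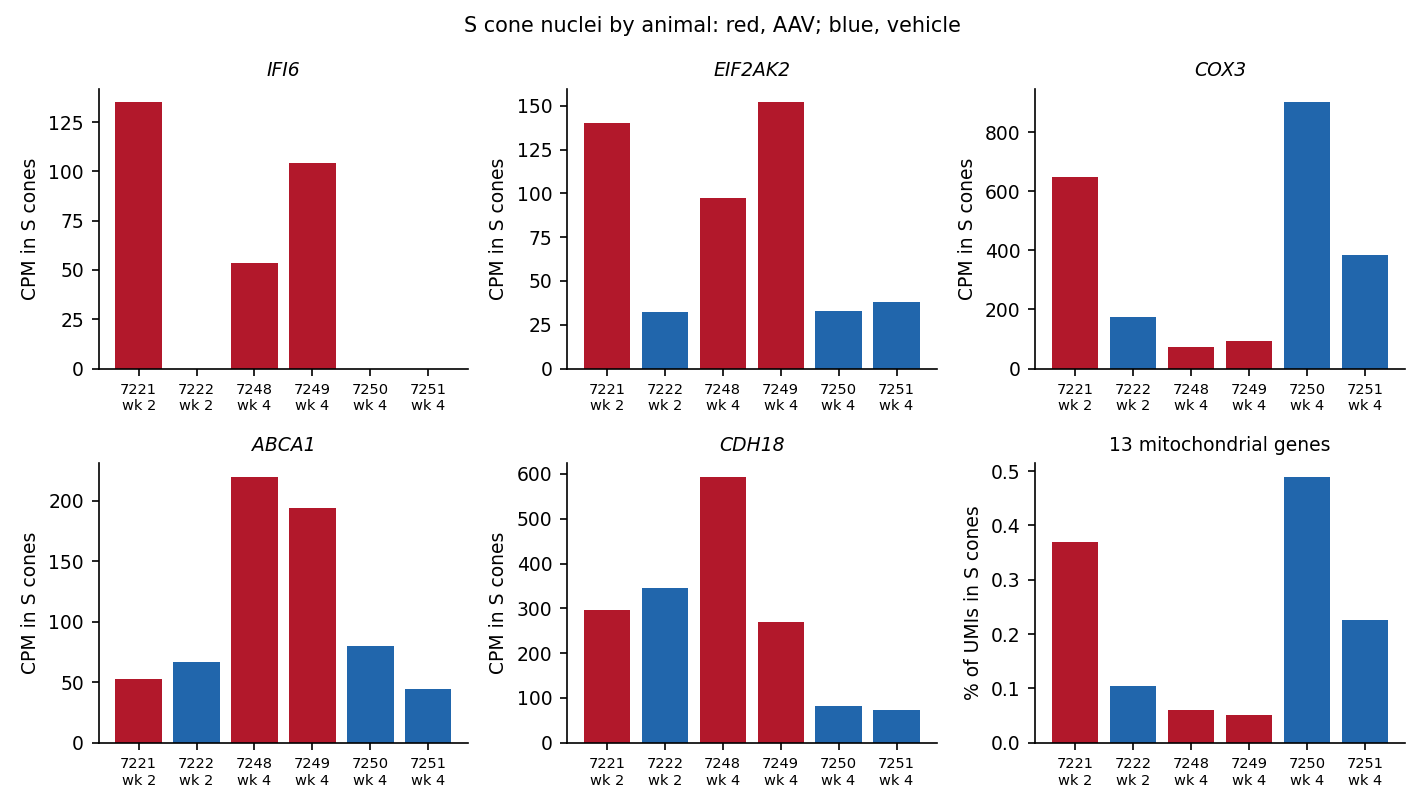
Levels in S cones by animal in CPM for IFI6, EIF2AK2, COX3, ABCA1 and CDH18, and the percent of UMIs from 13 mitochondrial genes; red bars are AAV-injected and blue bars vehicle-injected animals, 1 bar each, with the week under the bar. The 3 red bars of IFI6 and EIF2AK2 stand above all blue bars in both weeks, while ABCA1 and CDH18 separate the groups at week 4 only. COX3 and the mitochondrial share turn around between weeks (share 0.369% against 0.104% at week 2, 0.0595% and 0.0517% against 0.490% and 0.226% at week 4). In 7250, 252 of the 382 COX3 UMIs lay in 1 nucleus.

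Whether S cones responded otherwise than OPN1SW-0 cones was tested as the difference between the 2 responses at week 4. Of 17856 genes, 12 had a higher response (0.0672%) and 41 a lower response (0.23%) in S cones (edgeR's quasi-likelihood test with the animal as a block), and 660 genes were at an unadjusted p under 0.05. DESeq2 called 2, both higher, and the fit without animal 7248 called 21. The split was 33 higher and 14 lower in nuclei of 3000 to 6000 UMIs, with 16 of the 53 calls kept, 14 and 13 without the deepest 5% of nuclei, and 14 and 12 without nuclei holding at least 3 other-class UMIs, so no balance between directions is read from it. CDH18 had the lowest adjusted p: it was at 594 and 270 against 82.6 and 73.1 CPM in S cones and at 113 and 73.0 against 90.1 and 117 CPM in OPN1SW-0 cones (log2 difference 2.50 ± 0.23, edgeR adjusted p = 1.2e-23). In vehicle-injected 7222 of week 2, CDH18 was at 346 CPM in S cones, above AAV-injected 7249, and at 132 CPM in OPN1SW-0 cones. One nucleus held 53 of its 218 UMIs in 7249. Several named genes rested mostly on 1 nucleus: 24 of 30 week 4 UMIs of SPHKAP and 47 of 57 of TAFA1 lay in a single nucleus of 7248. For IFI6 and EIF2AK2 the difference was not past the threshold, at 6.57 ± 4.94 and -0.29 ± 0.33 on the log2 scale. IFI6 had 0 UMIs in the S cones of vehicle-injected animals. None of the 55 interferon-stimulated genes tested was called (median difference -0.27, against -0.00 over all genes). This says little at a background of 0.0672% higher and 0.23% lower, as only 7 of the list passed the filter on low counts in S cones alone. Of the genes that set S cones apart, CCDC136 had a difference of 0.61 ± 0.12 (edgeR adjusted p = 4.3e-04), with 4480 and 5170 against 4210 and 4160 CPM in S cones and 301 and 231 against 293 and 428 CPM in OPN1SW-0 cones. The response within S cones was 0.17 (edgeR adjusted p = 0.75). Of the OPN1SW-0 cones, 6.35% and 4.93% with AAV and 6.52% and 8.92% with vehicle held at least 5 CCDC136 UMIs. THRB (-0.70 ± 0.25) and TEAD4 (0.61 ± 0.26) were not called.

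At week 2 there was 1 animal per arm and no test. Past 2-fold were 100 genes higher (1.73%) and 55 lower (0.953%) in AAV-injected 7221 than in vehicle-injected 7222. EIF2AK2 was higher by 2.10 on the log2 scale. Mitochondrial genes differed between eyes: COX3 was higher by 1.91 on the log2 scale, with 2.91 in left and 1.17 in right eyes, while ND4 was higher by 0.60, with 1.52 and -0.20. In OPN1SW-0 cones the values were 0.15 for COX3 and -0.92 for ND4. GRIK1 was at 112 against 463 UMIs, a log2 difference of -2.03, with -1.03 in left and -3.41 in right eyes and -0.54 in OPN1SW-0 cones. CCDC136, TEAD4 and THRB differed by at most 0.19 on the log2 scale. The left eyes alone gave 299 genes past 2-fold and the right eyes 260.

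The vector's EGFP transcript was found in S cones of AAV-injected animals at low counts. At least 1 EGFP UMI was held by 13.4% of S cones in 7221, 2.60% in 7248 and 3.31% in 7249, against 8.44%, 5.07% and 5.76% of OPN1SW-0 cones. No S cone of a vehicle-injected animal held one, which allows a share of up to 1.28% to 4.00% per animal by the limit of 3 counts, or 1.56% to 4.80% by the exact 95% binomial interval. The mean difference between S and OPN1SW-0 cones was -0.000426 points (exact sign-flip permutation test over 3 animals, p = 1.0, with 0.25 the smallest possible), with S cones higher in 1 of 3 animals. In T lymphocyte nuclei, which enter the retina from the blood, 28.3%, 4.93% and 4.80% of 46, 649 and 646 nuclei held an EGFP UMI at median depths of 7123.5, 1878 and 1943.5 UMIs, against 5052, 4521 and 5461 in S cones. In 7248 and 7249 the S cone shares were below those of the T lymphocyte nuclei, but rested on 2 and 5 nuclei. Their exact 95% binomial intervals, 0.316% to 9.07% and 1.08% to 7.56%, contained the shares of both T lymphocyte nuclei and OPN1SW-0 cones. Background and expression therefore cannot be told apart in these S cones. Cones with at least 5 CCDC136 UMIs held 33 and 29 EGFP UMIs in 7248 and 7249, against 0 and 0 in 7250 and 7251. The T lymphocyte gate of 7221 held few and deep nuclei, like the 9 to 36 of vehicle-injected animals at medians of 5675 to 8138 UMIs, so no background level is read from it. The S cones of 7221 (exact 95% binomial interval 9.0% to 18.8%) compare with 9.04% of its rods, a share inside that interval, at a median of 2111 UMIs, and whether the EGFP of these S cones is expression of the transgene was not tested. With nuclei thinned to 1000 UMIs the S cone shares were 2.97%, 0% and 0.662%, against 2.35%, 1.42% and 1.63% of OPN1SW-0 cones, a mean difference of -0.59 points. Without thinning, at least 2 EGFP UMIs were held by 2.97%, 0% and 0.662% of S cones, against 1.41%, 0.562% and 0.616% of OPN1SW-0 cones.

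**Figure D5:**
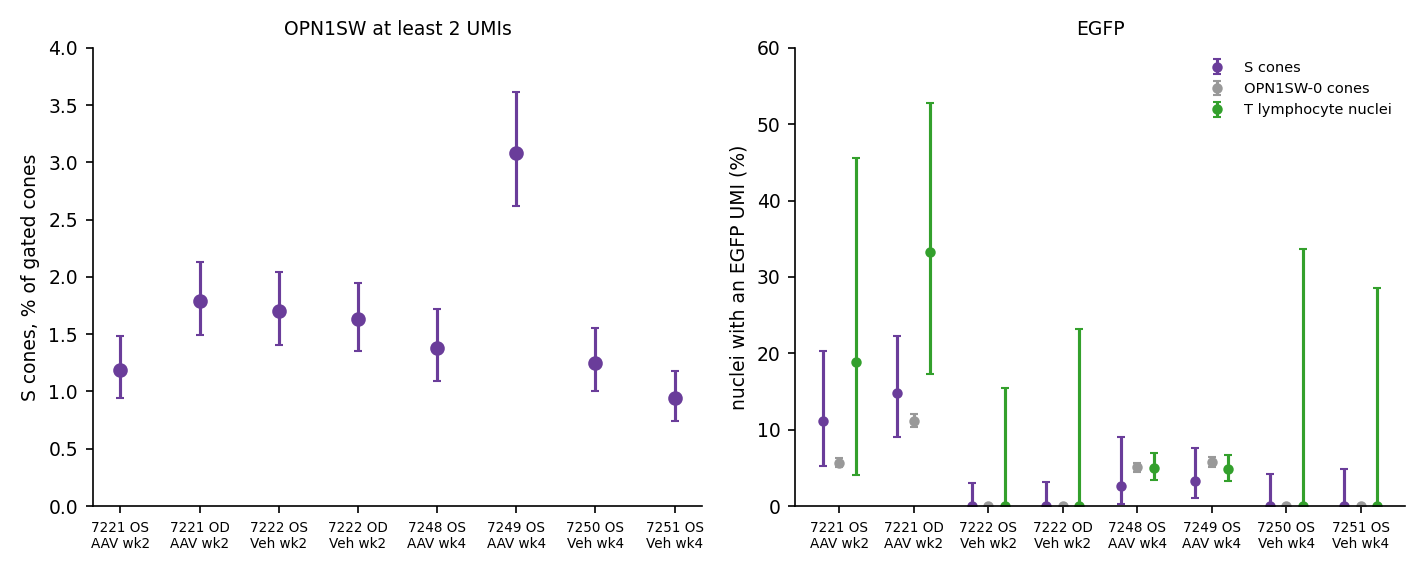
Left, S cones as a percent of gated cones in each retina, with exact 95% binomial intervals; right, percent of S cones (purple), OPN1SW-0 cones (grey) and T lymphocyte nuclei (green) with at least 1 EGFP UMI, with the same kind of interval. Animal 7249 stands out at 3.08% in the left panel, and in the right panel vehicle-injected retinas have no EGFP in S cones and the purple points of AAV-injected retinas lie below the green ones.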

How the data were processed

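Nuclei from frozen retinas were captured on 10x 3' chips, 4 lanes per retina. Per the labels and methods, the authors counted UMIs with Cell Ranger 8.0.0 against Sscrofa11.1 with EGFP added, and deposited raw counts per gene and barcode without normalization or cell types (35683 features, 18049 without a symbol). Here counts were summed per animal and gate and compared with edgeR 4.0.16 (quasi-likelihood test, TMM scaling, edgeR's filter on low counts, Benjamini-Hochberg adjustment, threshold 0.05) in R 4.3.3, tested on simulated data, with DESeq2 1.42.0 as an alternative. Both gates come from the same animals, so the animal was a block (correlation of deviations 0.38 to 0.74 over 3494 genes). Rods and T lymphocyte nuclei were gated likewise, on at least 3 UMIs of the 4 rod genes or of T cell markers and more than of the other gates' genes. Animals are separate samples, and the week 2 eyes were summed. Genes named were the 10 largest differences per direction with a symbol, at least 20 CPM and 1 direction in all 6 animals (S against OPN1SW-0 cones) or no overlap (AAV against vehicle), and for the difference of responses the 5 largest with a symbol and at least 20 CPM in a group, besides members of lists and genes said to be picked later. The members and lists were chosen with earlier results of these data known. Introns and overlapping genes could share reads. Coordinates and the printed sequence are from RefSeq's Sscrofa11.1. Some items that these rules would name are not reported here.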

Additional observations from a re-analysis of the deposited data

Results flagged for a closer look

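Among 24 measures and genes tested for an outlying animal, the S cone share of cones was past Dixon's 95% limit for 6 animals (0.663 against 0.625), because animal 7249 lay at 3.08% and the other 5 between 0.945% and 1.67%. With nuclei thinned to 1000 UMIs before the gate, 7249 lay at 0.192%, within the range of the other 5 (0.077% to 0.209%). Thinning left few S cone nuclei, so these shares say little on whether an animal stands apart. Chance alone marks about 1 in 20 groups.

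The response to the vector differed between S and OPN1SW-0 cones for 10 named genes at week 4 (edgeR's quasi-likelihood test, adjusted p under 0.05). The difference was 2.50 on the log2 scale for CDH18. SPHKAP (5.55) and TAFA1 (3.04) had most of their week 4 S cone UMIs in 1 nucleus. NXPH2 (10.82) and PLA2G7 (9.95) had 0 UMIs in the S cones of both vehicle-injected animals, and TMTC1 (-10.30) and ZBTB7C (-9.98) 0 in those of both AAV-injected animals, so these 4 values depend on the prior count and are no bounds. PCSK2 (-4.33), PLD5 (-2.66) and UTRN (-2.59) had a lower response in S cones, with 18 of 34 week 4 UMIs of PLD5 in 1 nucleus of 7251. PCSK2 had only 13 week 4 UMIs, and 14 of the 20 UTRN UMIs of 7250 lay in 1 nucleus. In cones with at least 5 CCDC136 UMIs the response to AAV was not called for PCSK2 (-0.96), PLD5 (-0.47) or UTRN (-0.71) (edgeR adjusted p of 0.26, 0.81 and 0.20).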

How the results depend on the processing

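The S cone rule kept 1.56% of gated cones, which limits depth: the week 4 sums of these nuclei held 295550 to 839999 UMIs, and 5771 genes could be tested. Settings marked as depth windows, other-class markers or CCDC136 were chosen after seeing the data, as were, for week 2, the eyes and 4-fold settings and, for the S cone share, the thinned-gate, leave-out and 3 against 3 settings, which the plan had attached to the wrong result and which could not be run as written. Leaving out each animal for the EGFP difference was also added after seeing the data.

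Against OPN1SW-0 cones, 2343 genes were called, and 553 with at least 5 OPN1SW UMIs (31 nuclei), 996 after thinning to 1000 UMIs, 857 with no replicate block, 1130 in 3 vehicle animals and 1831 to 2299 leaving out each animal. For AAV against vehicle, 25 were called, and 4 with at least 5 OPN1SW UMIs, 39 with at least 2000 UMIs, 8 with a mitochondrial share up to 0.5%, 15 with cone genes at least 3 times rod genes, 10 after thinning, 11 at 3000 to 6000 UMIs, 167 with no filter, 8 with 6 animals, 219 in cones with at least 5 CCDC136 UMIs and 49 to 132 leaving out each animal, with the remaining sample of an arm assumed to vary like the others. For the difference of responses, 53 were called, and 2 with at least 5 OPN1SW UMIs, 27 without the deepest 5% of nuclei, 10 after thinning, 26 without nuclei holding at least 3 other-class UMIs, 2 with DESeq2 and 21 to 63 leaving out each animal. At week 2, 155 genes were past 2-fold, and 1062 with at least 5 OPN1SW UMIs, 299 in left and 260 in right eyes, and 21 past 4-fold.

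The S cone share difference of 1.13 points was -0.0414 after thinning before the gate, -0.287 for cones with at least 5 CCDC136 UMIs, and 0.278 to 1.98 leaving out each animal, lowest without 7249. The EGFP difference was 0.241 with at least 5 OPN1SW UMIs, 0.0246 without the deepest 5% of nuclei, 0.349 for at least 2 EGFP UMIs and -2.46 to 1.24 leaving out each animal, lowest without 7221. At 5 OPN1SW UMIs, PKIB (-9.43), OTX2 (-0.11) and GNB3 (-0.10), and for the difference of responses NXPH2 (-1.04), TMTC1 (1.30), ZBTB7C (0.57), PLD5 (9.5) and UTRN (0.20), turned around, as did PLA2G7 with 6 animals (-0.45). Of 855 refits of the 45 genes named against OPN1SW-0 cones, 23 lost the call and 3 turned around, as did 53 and 0 of 241 for AAV against vehicle and 90 and 6 of 160 for the difference of responses. The cause of these changes was not tested.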
